A study of Arabidopsis thaliana with 6 samples.

Results

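The alpha-expansins EXPA1, EXPA2, EXPA3, EXPA4, EXPA5, EXPA6, EXPA8, EXPA9, EXPA10 and EXPA11 of Arabidopsis thaliana were taken by their locus identifiers, which gives 10 genes of the 37184 identifiers in the RNA-seq count tables. The tables hold 6 libraries of whole seedlings at the age of 14 days, 3 of WT (Col-0) and 3 of nol12-4. The nol12-4 allele is a T-DNA insertion in AtNOL12 (AT1G11240), a nucleolar protein gene, in the Col-0 background, and the tables hold this 1 insertion line and no complemented line. All plants were grown on sucrose-containing medium in long days. The comparison asked whether the mutation changed the expression of these genes. AtNOL12 itself was counted 663, 642 and 894 times in the WT libraries against 1186, 770 and 2142 times in the mutant ones (replicates are given in the order 1, 2, 3 throughout), and since this is 1 count over the whole gene, it does not show whether a transcript spans the insertion, and it is no check on the labels. The northern blot of AtNOL12 mRNA by which the study chose the line is not analysed here.

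Expansins are small secreted proteins that loosen the plant cell wall at acidic pH. They act without cutting the wall polymers, by letting cellulose and hemicellulose slip against each other under turgor, so that the cell can enlarge. The protons come from plasma membrane H+-ATPases, which SAUR proteins keep active by inhibiting their phosphatases, and auxin and brassinosteroid set this acid growth in motion. Alpha-expansins (EXPA) form the largest expansin branch of Arabidopsis, beside beta-expansins (EXPB) and the expansin-like families EXLA and EXLB. Single members are known from different places: EXPA7 and EXPA18 from growing root hairs, EXPA1 from guard cells, EXPA10 from leaves and petioles, and EXPA2 from germinating seeds.

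Each library held between 56627497 and 75001252 gene counts and detected between 23998 and 24746 genes. The libraries differed in more than genotype. CCA1, a morning gene of the circadian clock, had 78, 102 and 236 counts in WT and 7122, 5506 and 189 in nol12-4, and its partner LHY had 80, 83 and 71 counts in WT and 4314, 2896 and 75 in nol12-4. TOC1, an evening gene, had 9237, 8389 and 9481 counts in WT and 1082, 764 and 9247 in nol12-4. Replicates 1 and 2 of nol12-4 thus stood apart from the other 4 libraries, and replicate 3 resembled WT in these genes. Values from nol12-4 replicate 3 alone are therefore given beside those from all 3 mutant libraries. Organ marker sums also differed between the genotypes. The summed level of 8 root genes was 13.5 to 16.7 CPM (TMM-scaled CPM, a gene's share of the library's gene counts on a common scale) in WT and 24.3 to 38.3 in nol12-4. This list includes the root hair expansins EXPA7 and EXPA18, and the 4 genes left without its root hair genes (SHR, SCR, WOX5 and CASP1) summed to 8.09, 9.89 and 11.2 CPM in WT and 12.6, 20.6 and 13.3 in nol12-4. The sum of 5 leaf mesophyll genes was 4343 to 5025 CPM in WT and 6164 to 12440 in nol12-4. RBCS1A carried most of it (2777 CPM of the WT mean of 4745), and only RBCS1A and RCA had groups apart. LHCB2.1, LHCA1 and GLDP1 overlapped, LHCB2.1 at 23.8, 31.4 and 244 CPM in WT and 858, 1437 and 152 in nol12-4. Log2 fold changes of the 5 genes were 0.56 to 3.03, and 0.01 to 0.59 from nol12-4 replicate 3 alone. The sum of 3 stomatal lineage genes was 17.1 to 20.3 CPM in WT and 12.7 to 12.9 in nol12-4. FAMA carried most of the stomatal sum (14.7 CPM of the WT mean of 18.3) and had a log2 fold change of -0.88, while SPCH and MUTE, which act earlier in the lineage, had 0.46 and 0.33, with overlapping groups. No defining marker of root, mesophyll or stomatal lineage was at 0 in any library. The part of organ makeup or of time of day in the results below was not tested, and in whole seedlings fewer cells of a type and less RNA per cell cannot be told apart.

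The 10 genes are spread over 4 chromosomes. In the TAIR10.1 annotation of RefSeq, all are protein-coding. The longest coding sequence of each lies in 3 exons, except that of EXPA1, which lies in 4. Only EXPA2 overlaps another gene, AT5G05300, on the opposite strand, and the counts were made with strand. Coding sequences were 63.4 to 79.7% identical over the 45 pairs, with a median of 70.1%. The closest pairs were EXPA1 and EXPA10 at 79.7%, EXPA4 and EXPA6 at 78.2%, and EXPA3 and EXPA9 at 77.3%. The longest exact stretch that a member's transcript shared with any other expansin was 23 to 36 bases.

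The closest pair by coding sequence also shared the longest promoter stretch. The windows of EXPA1 and EXPA10 are shown because these near relatives had log2 fold changes of 1.19 and 0.12 in nol12-4, although the ratio between them overlapped between genotypes, as described below. Each window is the 250 bases before the RefSeq start of the gene, on the gene's strand, 5′ to 3′, and capitals mark the 14 bases that both windows hold. The median longest shared stretch over the 45 pairs was 9 bases. The stretch started at position -186 in EXPA1 and -116 in EXPA10, counted back from the gene start. On either strand it was in 2 of 27438 promoters of protein-coding genes, these 2. The stretch was picked as the longest over the 45 pairs, and the search included the 2 windows it came from. A count of at least 2 was therefore fixed beforehand, and the search is no test of a shared element.
EXPA1, chr1:26141476-26141725, plus strand: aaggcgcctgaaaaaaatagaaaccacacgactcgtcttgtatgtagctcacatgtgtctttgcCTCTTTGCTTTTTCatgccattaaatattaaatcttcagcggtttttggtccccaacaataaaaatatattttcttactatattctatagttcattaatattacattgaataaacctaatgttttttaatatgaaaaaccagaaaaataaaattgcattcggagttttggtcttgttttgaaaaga
EXPA10, chr1:9259182-9259431, plus strand: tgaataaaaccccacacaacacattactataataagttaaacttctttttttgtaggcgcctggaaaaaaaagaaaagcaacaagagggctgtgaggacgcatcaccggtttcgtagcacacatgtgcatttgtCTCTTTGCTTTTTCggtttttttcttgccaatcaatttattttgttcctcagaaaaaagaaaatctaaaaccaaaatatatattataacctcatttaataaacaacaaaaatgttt

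Motifs of growth hormone and clock factors were searched on both strands of the same windows. CGTGTG, a brassinosteroid response element, was in 3 of the 10 members (EXPA1, EXPA2 and EXPA6) and in 5.4% of the 27438 promoters. TGTCTC, the auxin response element, was in 3 (EXPA5, EXPA6 and EXPA10) and in 10.9% of promoters, and the match in EXPA10 overlaps the 14 bases above. The G-box CACGTG was in 0 of 10 and in 6.5% of promoters, the evening element AAATATCT in 0 and 4.8%, the CCA1 site AAAAATCT in 1 (EXPA5) and 6.7%, and CGTGCG in 0 and 1.6%. The broader E-box CANNTG, which includes the G-box, was in 7 members and 55.3% of promoters, and TATAAA was in 5 and 47.4%. The window of EXPA6 is shown because this gene had the lowest edgeR p of the members and held both hormone motifs. Capitals mark them, each read here on the opposite strand, with CGTGTG from position -90 and TGTCTC from -42. A match describes these letters and is no proof of a binding site.
EXPA6, chr2:12433797-12434046, minus strand: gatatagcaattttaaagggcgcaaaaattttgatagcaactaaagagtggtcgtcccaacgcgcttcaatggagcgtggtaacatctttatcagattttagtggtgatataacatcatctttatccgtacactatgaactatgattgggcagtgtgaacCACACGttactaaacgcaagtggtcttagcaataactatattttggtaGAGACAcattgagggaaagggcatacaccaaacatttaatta

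Levels of different genes were compared per kilobase of exon (CPM per kb). WT means of the members ran from 1.01 (EXPA5) to 21.6 (EXPA1), apart from EXPA2, which was almost absent (0.0287). EXPA1 was the most abundant member in each of the 6 libraries, at 21.6 ± 2.24 CPM per kb in WT and 49.5 ± 25.2 in nol12-4 (mean ± SD, n = 3 each). EXPA6 was next in 5 libraries, at 15.1 ± 2.14 in WT and 27.4 ± 7.77 in nol12-4, while in WT replicate 3 EXPA11 ranked above it. EXPA5 was ninth and EXPA2 last in every library, at 1.01 ± 0.136 CPM per kb in WT for EXPA5 and 0.0287 ± 0.0253 for EXPA2. The members between them, EXPA3, EXPA11, EXPA10, EXPA9, EXPA8 and EXPA4, had WT means of 9.51, 9.00, 6.99, 6.17, 4.17 and 2.43 CPM per kb, and neighbours in this order had overlapping ranges. In WT, EXPA1 did not overlap EXPA6 (19.1 to 23.5 against 12.9 to 17.2), and EXPA4 (1.93 to 2.91) did not overlap EXPA5 (0.857 to 1.12). In nol12-4, the ranges of EXPA1 and EXPA6 overlapped, and EXPA6 (19.5 to 35.0) did not overlap EXPA11 (7.54 to 17.3).

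EXPA1 and EXPA6 together made up 52.8, 53.6 and 41.6% of the summed CPM per kb of the 10 genes in the WT libraries and 64.0, 61.4 and 50.9% in nol12-4. The share of EXPA1 was 31.5, 31.9 and 24.0% in WT and 40.6, 41.9 and 28.6% in nol12-4, so nol12-4 replicate 3 lay inside the WT range. The summed level was 60.7, 69.4 and 97.8 CPM per kb in WT and 118, 180 and 87.4 in nol12-4. The groups overlapped, because the sum of nol12-4 replicate 3 was below that of WT replicate 3.

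**Figure D1:**
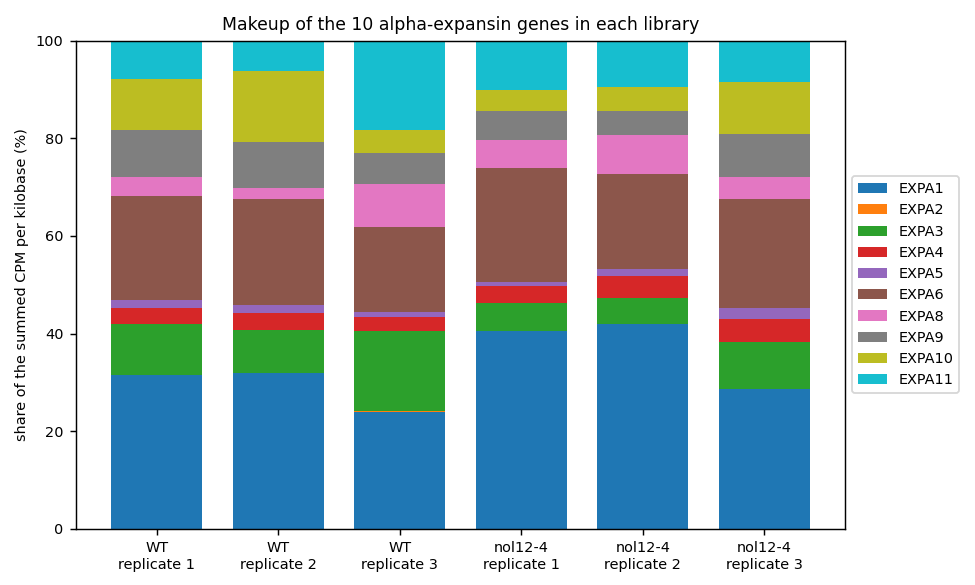
Share of each member in the summed CPM per kb of the 10 alpha-expansins (y axis, %), 1 stacked bar for each library (x axis). EXPA1 takes 24.0 to 41.9% in the 6 libraries, EXPA2 is too low to see, and EXPA11 and EXPA3 take their largest shares in WT replicate 3.

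The genotypes were compared gene by gene with edgeR's quasi-likelihood test and the Benjamini-Hochberg adjustment over all 21705 tested genes. Of the 10 members, 9 passed the filter on low counts, and EXPA2 did not. Estimates were higher in nol12-4 for 8 members and lower for 1, with a median log2 fold change of 0.84, against -0.0091 over all tested genes. By edgeR, 0 members were called in either direction at an adjusted p of 0.05, and 0.226% of all tested genes were called higher and 0.0691% lower. With the unadjusted p under 0.05 as the limit, 5 members were higher (EXPA1, EXPA4, EXPA5, EXPA6 and EXPA9) and 0 lower, against 12.1% and 7.91% of all tested genes. DESeq2, the tool of the study, called 3 members higher (EXPA1, EXPA4 and EXPA6) and 0 lower, against 6.2% of 24147 genes higher and 3.21% lower. In 4 members (EXPA1, EXPA4, EXPA6 and EXPA9) every nol12-4 library lay above every WT library, against 14.5% of tested genes, and in 0 every one lay below, against 11.6%. With nol12-4 replicate 3 as the lone mutant library, 0 members passed the unadjusted limit, against 3.52% of 22426 genes higher and 2.14% lower. In that fit log2 fold changes were 0.92 for EXPA5 and 0.81 for EXPA4, but 0.20 for EXPA1 and 0.37 for EXPA6. EXPA9 and EXPA10 had 0.32 and 0.40, and EXPA3, EXPA8 and EXPA11 had -0.21, -0.10 and -0.27. The median of the 9 tested members was 0.32, against 0.84 from all 3 mutant libraries. The loss of a call thus went with folds of different sizes. Leaving out WT replicate 1 or 2 or the second nol12-4 replicate left DESeq2 with 0 called members, and leaving out WT replicate 3 gave 5. The members were picked with earlier results of these libraries known, so these counts describe them and do not test the family.

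EXPA1 (AT1G69530, chr1:26141726-26143538), which acts in guard cells among other places, had 2103, 2292 and 2440 counts in WT and 5474, 6823 and 2988 in nol12-4. After scaling this was 29.6, 34.3 and 36.4 CPM in WT and 74.4, 117 and 38.7 in nol12-4. The mutant libraries were 2.22, 3.49 and 1.16 times the WT mean, so that replicate 3 lay just above the highest WT library. The means were 33.5 ± 3.47 and 76.6 ± 39.0 CPM, and the log2 fold change was 1.19 (standard error 0.36, edgeR adjusted p = 0.142, DESeq2 adjusted p = 0.0251). With nol12-4 replicate 3 as the lone mutant library the log2 fold change was 0.20 (edgeR adjusted p = 0.933), and without that replicate it was 1.51 (edgeR adjusted p = 0.0157). The DESeq2 call was lost without WT replicate 1 or 2 and without nol12-4 replicate 1 or 2, with adjusted p of 0.178, 0.0903, 0.116 and 0.261.

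EXPA6 (AT2G28950, chr2:12431338-12433796) had 1457, 1603 and 1833 counts in WT and 3240, 3257 and 2395 in nol12-4. This was 20.5, 24.0 and 27.3 CPM in WT and 44.0, 55.7 and 31.0 in nol12-4, with no overlap and again with nol12-4 replicate 3 nearest to WT. Among the members it had the lowest unadjusted p by edgeR (0.00674, next to 0.00689 for EXPA4), though by DESeq2 the p of EXPA4 (0.00085) and EXPA1 (0.00173) were lower than its 0.00181. Its log2 fold change was 0.86 (standard error 0.23, edgeR adjusted p = 0.113, DESeq2 adjusted p = 0.0259). The lone nol12-4 replicate 3 gave 0.37, and leaving that library out gave 1.05 (edgeR adjusted p = 0.0253). Its DESeq2 call was lost without WT replicate 1 or 2 and without nol12-4 replicate 1 or 2 (adjusted p of 0.21, 0.108, 0.142 and 0.231).

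EXPA4 (AT2G39700, chr2:16543832-16545746), the closest relative of EXPA6 here, had 206, 244 and 293 counts in WT and 448, 715 and 495 in nol12-4. This was 2.90, 3.66 and 4.37 CPM in WT and 6.09, 12.2 and 6.40 in nol12-4, without overlap. In EXPA4 replicate 3 was not the lowest mutant library, and it stood at 1.76 times the WT mean, beside 1.67 and 3.36 in replicates 1 and 2. The log2 fold change was 1.18 (standard error 0.32, edgeR adjusted p = 0.114, DESeq2 adjusted p = 0.0149), and the lone replicate 3 gave 0.81 (edgeR adjusted p = 0.868, unadjusted p = 0.0538). Its DESeq2 adjusted p rose past the threshold when WT replicate 1 (0.153) or 2 (0.0735) was left out, and likewise for nol12-4 replicate 2 (0.143).

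EXPA9 (AT5G02260, chr5:463073-465273) was the steadiest member. It had 564, 590 and 564 counts in WT and 708, 727 and 815 in nol12-4, or 7.94, 8.84 and 8.41 CPM in WT and 9.62, 12.4 and 10.5 in nol12-4. The groups did not overlap, though the difference was small: the means were 8.40 ± 0.446 and 10.9 ± 1.43 CPM, a log2 fold change of 0.37 (standard error 0.15, edgeR adjusted p = 0.24, DESeq2 adjusted p = 0.258). The lone nol12-4 replicate 3 gave 0.32, close to the value from all 3 mutant libraries.

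EXPA5 (AT3G29030, chr3:11011262-11013451), known for its part in brassinosteroid-dependent growth, had 105, 107 and 82 counts in WT and 112, 204 and 210 in nol12-4. In CPM, nol12-4 replicate 1 (1.52) fell inside the WT range (1.22 to 1.60), while replicates 2 and 3 (3.49 and 2.72) lay above it. Replicates 1 and 2, which share the clock values, were thus apart in this gene. The log2 fold change was 0.84 (standard error 0.34, edgeR adjusted p = 0.232, DESeq2 adjusted p = 0.152), and the lone replicate 3 gave 0.92. Without nol12-4 replicate 1, DESeq2 called it, at 1.10 (adjusted p = 0.0287).

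**Figure D2:**
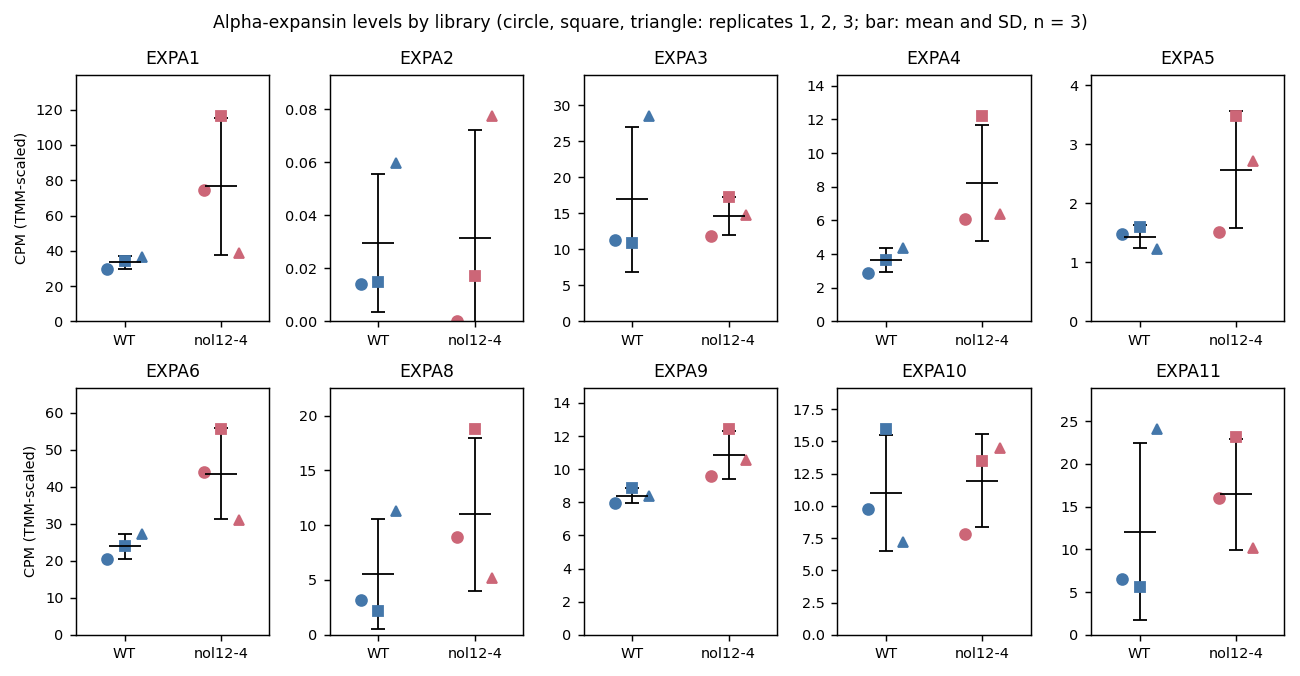
CPM of each of the 10 members (y axis, linear and starting at 0, with its own range in each panel) in WT and nol12-4; points are libraries, shaped by replicate, and the bars give the mean and SD (n = 3). The groups do not overlap in EXPA1, EXPA4, EXPA6 and EXPA9, and WT replicate 3 stands far above the other WT libraries in EXPA3, EXPA8 and EXPA11.

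In EXPA8, EXPA11 and EXPA3, and in EXPA10 described below, the range of the WT libraries was wider than the difference between the group means. EXPA8 (AT2G40610, chr2:16948791-16950705), a growth gene that brassinosteroid induces, had 224, 142 and 756 counts in WT and 659, 1099 and 402 in nol12-4. The highest WT library held 5.30 times the CPM of the lowest, and the groups overlapped. Its log2 fold change was 0.99 with a standard error of 0.69 (edgeR adjusted p = 0.459, DESeq2 adjusted p = 0.387). Without WT replicate 3 DESeq2 called it, at 2.05 (adjusted p = 0.00165), and from the lone nol12-4 replicate 3 the sign turned, to -0.10.

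EXPA11 (AT1G20190, chr1:6998335-6999839) had 462, 377 and 1615 counts in WT and 1179, 1354 and 782 in nol12-4. WT replicate 3 (24.1 CPM) was above each mutant library, while WT replicates 1 and 2 (6.51 and 5.65) were below each. Its log2 fold change was 0.44 (standard error 0.58, edgeR adjusted p = 0.701, DESeq2 adjusted p = 0.718), it was 1.43 without WT replicate 3 (DESeq2 adjusted p = 0.00227), and it turned to -0.27 from the lone nol12-4 replicate 3.

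EXPA3 (AT2G37640, chr2:15787523-15790139) was the one member with a lower estimate. It had 808, 729 and 1916 counts in WT and 875, 1011 and 1142 in nol12-4. Its log2 fold change was -0.21 (standard error 0.38, edgeR adjusted p = 0.79, DESeq2 adjusted p = 0.81). The sign rested on WT replicate 3, without which it was 0.39. WT replicate 3 held 4.27 times the mean of WT replicates 1 and 2 for EXPA8, 3.96 times for EXPA11 and 2.56 times for EXPA3. Ratios at least this high were found in 0.71, 0.918 and 2.46% of tested genes. In EXPA1, EXPA4, EXPA6 and EXPA9 the same ratio was 1.14, 1.33, 1.23 and 1.00, and in EXPA5 and EXPA10 it was 0.794 and 0.558. The daytime clock gene PRR7 had 2220, 2110 and 8135 counts in the WT libraries, and a part of time of day in this WT spread was not tested.

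EXPA10 (AT1G26770, chr1:9259432-9261313), which promotes leaf and petiole growth, had 695, 1066 and 482 counts in WT and 576, 790 and 1122 in nol12-4. Its levels were 9.79, 16.0 and 7.19 CPM in WT and 7.83, 13.5 and 14.5 in nol12-4, which interleave. The log2 fold change was 0.12 (standard error 0.34, edgeR adjusted p = 0.87, DESeq2 adjusted p = 0.905), and its sign turned without WT replicate 3 (-0.11) and without nol12-4 replicate 3 (-0.05). EXPA10 was the only one of the 9 tested members with its highest mutant value in replicate 3.

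EXPA2 (AT5G05290, chr5:1568694-1569915), a gene of germinating seeds, had 1, 1 and 4 counts in WT and 0, 1 and 6 in nol12-4. These are at or near the 3 counts that a count of 0 allows, which correspond to 0.0400 to 0.0530 CPM in these libraries. No fold is given, and a difference was not detectable at this depth.

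**Figure D3:**
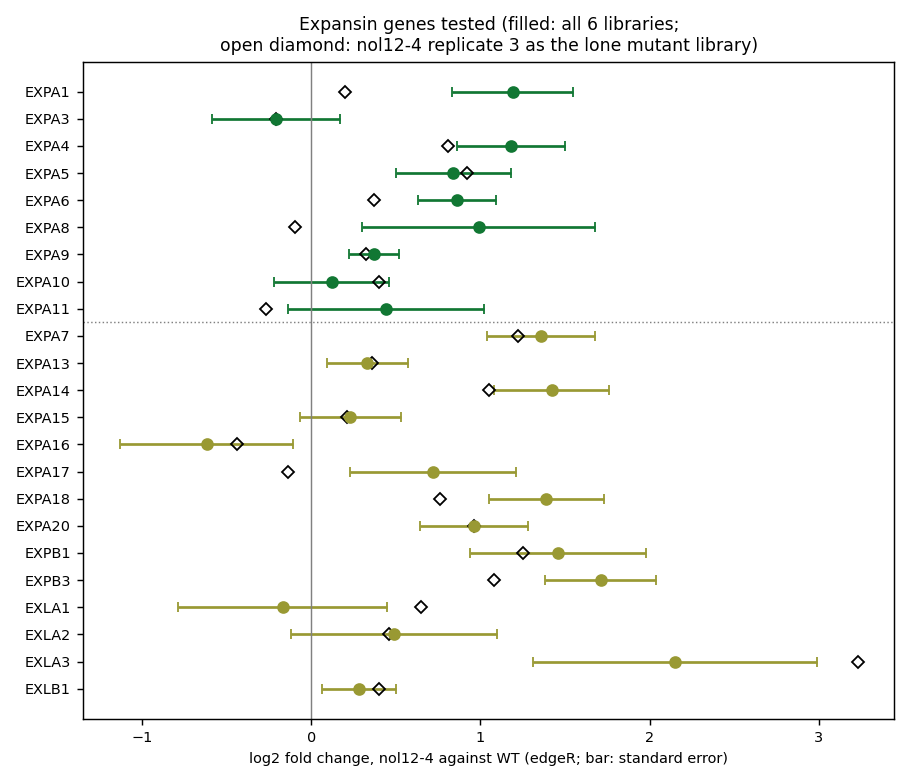
Log2 fold change of nol12-4 against WT by edgeR (x axis, filled points; bars are standard errors) for the 9 tested members above the dotted line and the other tested expansins below it; open diamonds give the value from nol12-4 replicate 3 as the lone mutant library. The diamonds of EXPA1 (0.20) and EXPA6 (0.37) lie below their filled points (1.19 and 0.86), while those of EXPA5 and EXPA9 lie close to theirs.

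The members shared some of their highest and lowest libraries. Of the 9 tested members, nol12-4 replicate 2 was the highest mutant library in 8, all but EXPA10, and it was also the highest in the root, root hair and leaf mesophyll sums. WT replicate 3 was the highest WT library in 6 (EXPA1, EXPA3, EXPA4, EXPA6, EXPA8 and EXPA11). In 4 members (EXPA1, EXPA6, EXPA8 and EXPA11), nol12-4 replicate 3 was the lowest mutant library. In EXPA3, EXPA4, EXPA5, EXPA9 and EXPA10 the lowest was replicate 1. The share of all tested genes with the same order of libraries was not computed, so these counts describe the members only. EXPA8 was at 0.70, 1.77 and -0.09 on the log2 scale relative to the WT mean in nol12-4, and at 1.03 in WT replicate 3, above nol12-4 replicate 1. On the same scale, CCA1 was at 5.56, 5.52 and 0.25 in nol12-4, and EXPA1 was at 1.15, 1.80 and 0.21. EXPA4 was at 0.74, 1.75 and 0.81.

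**Figure D4:**
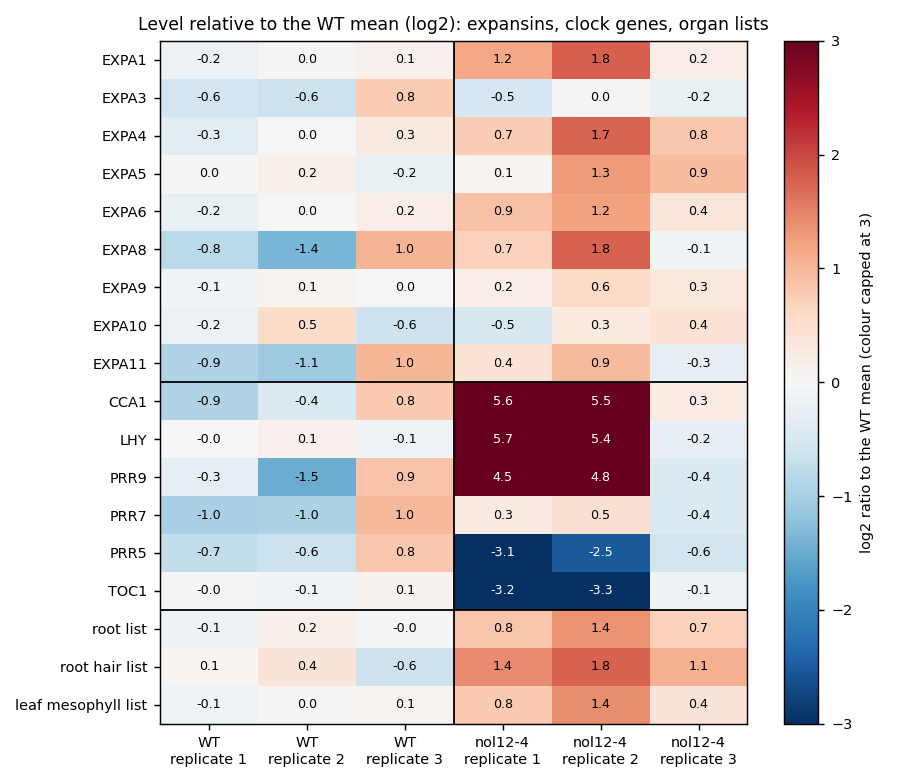
Log2 ratio of the level in each library (columns) to the WT mean, for the 9 tested members, 6 clock genes and the summed levels of 3 organ marker lists (rows); colours are capped at 3 in either direction. CCA1, LHY and PRR9 are high in nol12-4 replicates 1 and 2 only, and at 0.25, -0.24 and -0.43 in replicate 3. In replicate 3, EXPA4, EXPA5 and the root hair list are at 0.81, 0.92 and 1.08. EXPA1, EXPA6, EXPA9 and EXPA10 are there at 0.21, 0.37, 0.33 and 0.40, and EXPA3, EXPA8 and EXPA11 are below the WT mean. The root and leaf mesophyll lists are at 0.70 and 0.38, and EXPA5 is at 0.08 in replicate 1.

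Ratios between members within a library do not depend on the scaling. EXPA10 was taken as the common denominator for the other 8 tested members, and an exact permutation test of 3 against 3 cannot go below p = 0.1. EXPA1 had 3.03, 2.15 and 5.06 times the counts of EXPA10 in WT and 9.50, 8.64 and 2.66 times in nol12-4. The ratio thus overlapped between genotypes (exact permutation test, two-sided, p = 0.3, adjusted p = 0.6 over the 8 pairs). EXPA5 was the only one of the 8 whose ratios did not overlap, at 0.151, 0.1 and 0.17 in WT and 0.194, 0.258 and 0.187 in nol12-4 (exact p = 0.1, the smallest possible, adjusted p = 0.533). The other 6 pairs had exact p of 0.2 to 0.9. No pair was shown to change its balance.

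The genes most like EXPA6 over the 6 libraries, by Euclidean distance of log2 CPM profiles centred on their means, were CCR1 (distance 0.153), a cinnamoyl-CoA reductase of lignin synthesis, HCF244 (0.166), a photosystem II assembly factor, MIPS1 (0.187), an inositol phosphate synthase, JAL33 (0.191), a jacalin-related lectin, and AT1G72810 (0.194). The median distance over 21704 genes was 1.44. EXPA1 and EXPA4 were at 0.61 and 0.63, EXPA9 was at 0.80 and EXPA5 at 1.09. Their ranks among the 21704 genes were 533, 604, 1567 and 4488, so many other genes lay nearer to EXPA6. EXPA3, EXPA8, EXPA10 and EXPA11 were at 1.44 to 1.79, no nearer than the median gene. CCR1 had 19.6, 25.9 and 27.2 CPM in WT and 41.6, 55.2 and 30.0 in nol12-4, nearly the values of EXPA6 itself.

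Other expansins were read from the same fit. Of 16 other EXPA genes, 9 had a count and 8 were tested, with a median log2 fold change of 0.84. With an unadjusted edgeR p under 0.05, 4 were higher and none lower, against 12.1% and 7.91% of all tested genes. By edgeR 0 were called, and by DESeq2 3 were called higher, against 6.2% of 24147 genes. EXPA7, a root hair expansin, had 128, 129 and 63 counts in WT and 267, 277 and 282 in nol12-4 (log2 fold change 1.36, standard error 0.32, edgeR adjusted p = 0.0905, DESeq2 adjusted p = 0.00221). EXPA18, its partner in root hairs, had 134, 156 and 95 counts in WT and 348, 403 and 246 in nol12-4 (1.39, DESeq2 adjusted p = 0.00416). EXPA14 had 78, 132 and 73 counts in WT and 252, 286 and 222 in nol12-4 (1.42, DESeq2 adjusted p = 0.00319). EXPA20, at 65, 37 and 64 counts in WT and 108, 99 and 122 in nol12-4, passed only the unadjusted threshold in edgeR (0.96, unadjusted p = 0.0173). In these 4 genes every nol12-4 library lay above every WT library, against 14.5% of all tested genes. From nol12-4 replicate 3 alone their log2 fold changes were 1.22, 0.76, 1.05 and 0.96. The root hair list (EXPA7, EXPA18, COBL9 and PRP3), of which 4 of 4 were called higher by DESeq2, summed to 5.45, 6.85 and 3.37 CPM in WT and 13.9, 17.7 and 11.0 in nol12-4, and a part of root hair content in these values was not tested.

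Of the 6 beta-expansins, 3 had a count. EXPB3 had 203, 278 and 175 counts in WT and 709, 877 and 527 in nol12-4, a log2 fold change of 1.71 (standard error 0.33, edgeR adjusted p = 0.0694, DESeq2 adjusted p = 0.000134), and it kept 1.08 from nol12-4 replicate 3 alone. EXPB1, with 11, 15 and 5 counts in WT and 31, 28 and 28 in nol12-4, passed only the unadjusted threshold (1.46, edgeR unadjusted p = 0.0242). Of the 4 EXLA and EXLB genes, 1 passed it, EXLA3 at 2.15 (edgeR unadjusted p = 0.0356), where 196 of the counts were in nol12-4 replicate 3. Of all tested genes, 12.1% passed it as higher and 7.91% as lower. Of the 36 expansin genes listed, 26 had a count in any library, and by edgeR 0 were called.

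Genes of acid growth and of its control were read as lists. Over all genes, DESeq2 called 6.2% of 24147 higher and 3.21% lower. At an unadjusted edgeR p under 0.05, 12.1% of tested genes were higher and 7.91% lower. Of 11 plasma membrane H+-ATPases (AHA), 9 were tested, with a median log2 fold change of 0.14; DESeq2 called 0 higher and 1 lower. Their summed level was 885 to 1006 CPM in WT and 657 to 850 in nol12-4, without overlap. Most of it came from AHA1 (log2 fold change -0.49, edgeR adjusted p = 0.26, groups apart) and AHA2 (-0.36, edgeR adjusted p = 0.381, groups overlapping), neither of which was called. The called gene was AHA5, at 16.1, 16.2 and 18.6 CPM in WT and 9.68, 9.97 and 12.2 in nol12-4 (-0.67, standard error 0.15, edgeR adjusted p = 0.087, DESeq2 adjusted p = 0.0077). Of SAUR19 to SAUR24, 1 of 6 was called by DESeq2, SAUR19, which had 103, 93 and 185 counts in WT and 78, 30 and 56 in nol12-4 (-1.28, edgeR adjusted p = 0.158, DESeq2 adjusted p = 0.0409). These SAUR genes are near-identical copies, and reads without a unique alignment were not assigned to any gene, so some of their reads may be missing. Of 12 transcription regulators of auxin and brassinosteroid growth, among them ARF7, BZR1 and HBI1, 0 were called by either tool, and 1 passed the unadjusted edgeR threshold (PRE1, higher). Of 10 clock genes, DESeq2 called 3 higher (CCA1, LHY and PRR9) and 0 lower. It gave a p for 9 of the 10, and none for TOC1, which therefore could not be called (edgeR log2 fold change -1.43, adjusted p = 0.368). In the organ lists DESeq2 called 4 of 8 root genes higher, the same 4 as in the root hair list, and none of SHR, SCR, WOX5 and CASP1. It called 1 of 5 mesophyll genes higher, and 1 of 3 stomatal lineage genes lower, while edgeR called 0 in each. Of 3 floral transition genes (AP1, LFY and SOC1) DESeq2 called 1 lower, AP1 (adjusted p = 0.0348). AP1 had only 7, 17 and 6 counts in WT and 1, 0 and 0 in nol12-4, too few for the edgeR filter. LFY and SOC1 overlapped between the genotypes.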

How the data were processed

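Libraries were made by the authors with a stranded kit after removal of rRNA and read in pairs. Their reads were aligned to TAIR10 with HISAT2 2.0.4, and HTSeq 0.6.0 assigned them to Araport11 genes by strand. The deposited values are raw counts per gene for each library, without normalization. The summary lines of the counting, 20.6 to 25.1% of the total, were left out. Levels are CPM on TMM-scaled libraries, so a change is relative to the other genes. Exon lengths, coordinates and promoters came from RefSeq TAIR10.1, in which 36899 of 37184 identifiers and all 10 members were found.

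WT (n = 3) and nol12-4 (n = 3) were compared by edgeR 4.0.16 under R 4.3.3 (filterByExpr, glmQLFit robust, genotype as the only term, two-sided, Benjamini-Hochberg at 0.05). Standard errors given for edgeR are the absolute log2 fold change over the square root of the test's F value, as edgeR reports none. DESeq2 1.42.0 (alpha 0.05), limma-voom (limma 3.58.1), other scalings and filters, a replicate block and leaving out each library were alternatives. The fits were also run on simulated counts that gave all genes the same variability. This checked the code and does not show how the fits behave on these libraries. Replicates are biological per the labels, and no library pair agreed within sampling noise. Deviations of log2 CPM from the group mean correlated at 0.16, -0.11 and 0.03 between same-numbered libraries, so the numbers were not taken as pairs. Members are all named. Other genes are named by their edgeR or DESeq2 calls, by an unadjusted edgeR p under 0.05, or to describe a list or profile. Members and lists were chosen with earlier results of these data known. Floors (3 counts) cover counting error only.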

Additional observations from a re-analysis of the deposited data

How the results depend on the processing

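The count of called members was 0 also with limma-voom, the other scalings, the other filters and the replicate block. The calls of members changed from 0 to 3 higher with DESeq2 and to 2 higher without nol12-4 replicate 3 (EXPA1 and EXPA6; range 0 to 2 over the 6 fits that left out a library). Over all genes, 49 were called higher and 15 lower in the edgeR fit. These counts were 1498 and 776 with DESeq2, 376 and 51 with library size alone, which moved the median of all genes to 0.092, and 142 and 41 with no filter on low counts. With a replicate block they were 1 and 0, and they ranged from 0 to 1038 and from 0 to 601 when a library was left out. With nol12-4 replicate 3 as the lone mutant library, assumed to vary like the WT libraries and chosen after seeing the data, they were 0 and 0. The count of members at an unadjusted p under 0.05, 5 by edgeR, was 3 with limma-voom and 3 with the replicate block (EXPA1, EXPA4 and EXPA6 in both), 3 to 5 when a library was left out and 0 with the lone mutant library. The 3 DESeq2 calls stayed 3 with the replicate block and ranged from 0 to 5 when a library was left out: 0 when WT replicate 1 or 2 or the second nol12-4 replicate was missing, 2 without nol12-4 replicate 1 (EXPA4 and EXPA5) and 5 without WT replicate 3 (EXPA1, EXPA4, EXPA6, EXPA8 and EXPA11).

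With a library left out, EXPA3 ranged from -0.45 to 0.39 by edgeR and from -0.46 to 0.39 by DESeq2, with its sign turned without WT replicate 3 (0.39). EXPA10 ranged from -0.11 to 0.49 and from -0.11 to 0.48, with its sign turned without WT replicate 3 (-0.11) and without nol12-4 replicate 3 (-0.05 by edgeR and -0.04 by DESeq2). The sign turned with the lone mutant library in EXPA8 (-0.10) and EXPA11 (-0.27). Using coding length in place of exon length moved EXPA3, EXPA8, EXPA9 and EXPA10 to ranks 4, 6, 7 and 5 in nol12-4. The cause was not tested. Depth limits only EXPA2 among the members.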

Other observations

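EXLA1, an expansin-like gene outside the alpha branch and chosen here after its values were seen, had 710, 388 and 1625 counts in WT and 612, 353 and 1636 in nol12-4, so that replicate 3 was the highest library of both genotypes (edgeR log2 fold change -0.17, adjusted p = 0.901).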
